A study of Mus musculus with 8 samples.

Results

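miR-383-5p (mmu-miR-383-5p in the deposited counts) is a mature miRNA of the mouse hippocampus that is cut from an intron of Sgcz, and it is described here in BTBR and B6 mice. It was picked by name because its level had differed between these strains in the same libraries, and it is 1 of 422 miRNAs in the deposited counts. The other arm of its hairpin, miR-383-3p, has no row among them and was not analysed here. Hippocampal small RNA was sequenced from adult male mice aged 12 weeks, with 4 libraries from BTBR T+ Itpr3tf/J mice (BTBR) and 4 from C57BL/6J mice (B6), 1 mouse per library. BTBR is an inbred strain used as a model of idiopathic autism and B6 is the control strain. The mice carried no transgene or treatment, so the groups differ across the whole strain background. Tissue was punched from brain slices and holds all cell types of the region. In such bulk tissue, fewer cells of a type and less RNA per cell cannot be told apart. The labels and methods give separate mice, and the values measure the spread between these mice in 1 cohort.

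miRNAs are short RNAs that lead Argonaute proteins to messenger RNAs, mostly through their seed (bases 2 to 8), and lower the stability or translation of those messengers. An intronic miRNA is usually transcribed together with its host gene, and its hairpin is then cut out of the intron by Drosha and processed by Dicer into a 5p and a 3p arm, of which usually 1 is kept. Sgcz encodes zeta-sarcoglycan, a membrane protein of the sarcoglycan complex, which is part of the dystrophin-associated assembly. miR-383 has mostly been studied outside the hippocampus, in testis, ovary and tumours.

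In GRCm38, the build to which the authors mapped the reads, the Mir383 hairpin of 70 bases lies on chromosome 8 from 38252133 to 38252202 on the minus strand. In the GENCODE annotation it sits inside Sgcz, on the same strand, a gene that spans 37522298 to 38661508. Both annotated Sgcz transcripts, ENSMUST00000118896.1 with 8 exons and ENSMUST00000135764.7 with 10, place it in intron 1. That intron runs from 37953058 to 38660724, or 707667 bases. The hairpin lies 408522 bases after the end of exon 1 and 299075 bases before exon 2, far from any exon. Small RNA libraries do not measure Sgcz mRNA, and its level was not analysed here.

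After TMM normalization the level of miR-383-5p was higher in every BTBR mouse than in every B6 mouse, while with counts scaled by the library total alone BTBR replicate 2 lay below B6 replicate 2. Reads counted on it numbered 4529, 5917, 3781 and 2667 in B6 replicates 1 to 4, and 7511, 2559, 6385 and 13731 in BTBR replicates 1 to 4. The libraries differ in depth, with 5078301 to 5792967 reads counted on miRNAs in B6 and 2247482 to 7904990 in BTBR mice, so that the low count of BTBR replicate 2 comes from the shallowest library. After TMM normalization, a scaling by library composition that the study also used, and in CPM (reads scaled to a common library size), B6 replicates 1 to 4 had 869, 990, 763 and 599 CPM. BTBR replicates 1 to 4 had 1544, 1149, 1599 and 1652 CPM. BTBR replicate 2 was the lowest of its strain and lay 159 CPM above B6 replicate 2, the highest of the other strain, while the other BTBR mice lay well above. B6 mice averaged 805 ± 166 CPM (SD, n = 4), and BTBR mice averaged 1486 ± 229 CPM (SD, n = 4), which is 1.85 times as much. In edgeR's quasi-likelihood fit this was a log2 fold change of 0.88 (standard error 0.21). Because miR-383-5p was chosen for this contrast, the difference is given as a description, without a test.

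For context, 7 of the 422 miRNAs (1.66%) passed an adjusted p of 0.1 in that fit, 5 (1.18%) of them as higher and 2 (0.474%) as lower in BTBR mice. The libraries of the strains did not overlap in either direction for 28 miRNAs (6.64%), and were all higher in BTBR mice for 14 (3.32%). The count of 7 was 21 with the DESeq2 Wald test and 4 with library size only. It was 13 without B6 replicate 2, 4 without BTBR replicate 1, and 3 when BTBR replicate 3 or BTBR replicate 4 was omitted. These shares are given only as background, since the choice used the same libraries.

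**Figure D1:**
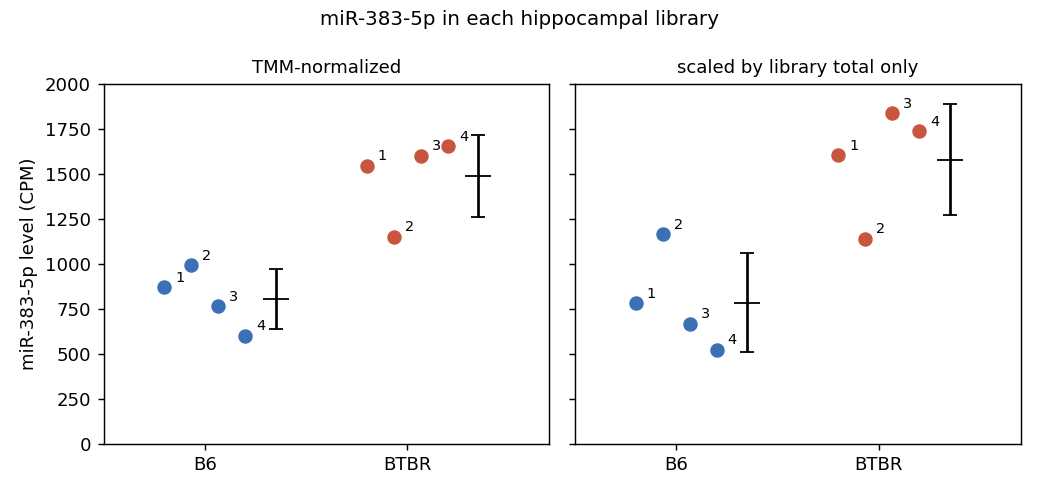
Level of miR-383-5p in CPM (vertical axis, from 0) in each of the 4 B6 and 4 BTBR libraries, numbered by replicate, after TMM normalization (left) and scaled by the library total only (right), with mean and SD as bars. On the left all BTBR mice are above 990 CPM, the highest B6 value, and on the right BTBR replicate 2 (1139 CPM) is just below B6 replicate 2 (1165 CPM).

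The gap between the strains depended on the scaling. With counts divided by the library total alone, B6 mice had 782, 1165, 667 and 522 CPM and BTBR mice 1601, 1139, 1835 and 1737 CPM, in replicate order. On that scale BTBR replicate 2 lay below B6 replicate 2 and the strains overlapped, with means of 784 ± 275 CPM (SD, n = 4) and 1578 ± 308 CPM (SD, n = 4). B6 replicate 2 had the largest TMM factor, 1.18, against 0.872 to 0.900 in the other B6 mice and 0.991 to 1.15 in BTBR mice. With counts scaled by the library total alone, the order of BTBR replicate 2 and B6 replicate 2 was not settled at this depth, since their counting intervals overlapped. The 95% Wilson interval of the library-scaled value reached from 1136 to 1195 CPM in B6 replicate 2 and from 1095 to 1184 CPM in BTBR replicate 2, and half-widths were at most 3.87% of the value in any library. The reads carry no molecular identifiers, so these intervals cover counting error only.

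Within a strain the miRNA varied moderately between mice. The highest B6 mouse had 1.65 times the level of the lowest, and the highest BTBR mouse 1.44 times, with coefficients of variation of 20.6% and 15.4%. The within-strain SD on the log2 scale was 0.28, while the median over the 318 miRNAs with a mean of at least 10 CPM was 0.38, and 240 of them varied more.

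By level, miR-383-5p was among the more abundant hippocampal miRNAs. It ranked 73rd of 422 by mean CPM in B6 mice and 56th in BTBR mice. In single libraries the rank was 69, 64, 73 and 83 in B6 replicates 1 to 4, and 53, 63, 56 and 54 in BTBR replicates 1 to 4, so that the best placed B6 library and the worst placed BTBR library were neighbours. Mature miRNAs have nearly the same length, but ligation favours some sequences, and ranks between miRNAs carry that uncertainty. The 422 also include 4 pairs of miRNAs with identical counts in every library, such as miR-486a-5p and miR-486b-5p, and the mean level of each was below that of miR-383-5p in both strains. In B6 mice its neighbours were miR-29b-3p, a member of a family that rises as neurons mature, at 819 ± 59.3 CPM and miR-1839-5p at 791 ± 210 CPM (SD, n = 4). In BTBR mice they were miR-126a-3p, an endothelial miRNA, at 1529 ± 377 CPM and miR-146b-5p, a miRNA of immune signalling, at 1447 ± 377 CPM (SD, n = 4). The ranges of all these neighbours overlapped that of miR-383-5p in the same strain.

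Among 34 miRNAs listed as enriched in brain or neurons, miR-383-5p ranked 17th in B6 and 15th in BTBR mice, and between 14 and 17 in every library. In B6 mice it lay between miR-153-3p, a neuronal miRNA from an intron of Ptprn2, at 1010 ± 237 CPM and miR-384-5p at 646 ± 166 CPM (SD, n = 4). In BTBR mice it lay between miR-124-3p, the miRNA best known for neuronal identity, at 1538 ± 516 CPM and miR-153-3p at 1165 ± 195 CPM (SD, n = 4). The ranges of these neighbours also overlapped its own. Of the other 33 listed brain miRNAs, 22 had log2 fold changes above 0 and 11 below, between −0.62 and 0.72 with a median of 0.13, beside 0.02 over all 422. None passed the adjusted threshold in edgeR's quasi-likelihood test, and 2 of 33 (6.06%) had an unadjusted p under 0.05, beside 10.9% of all miRNAs.

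**Figure D2:**
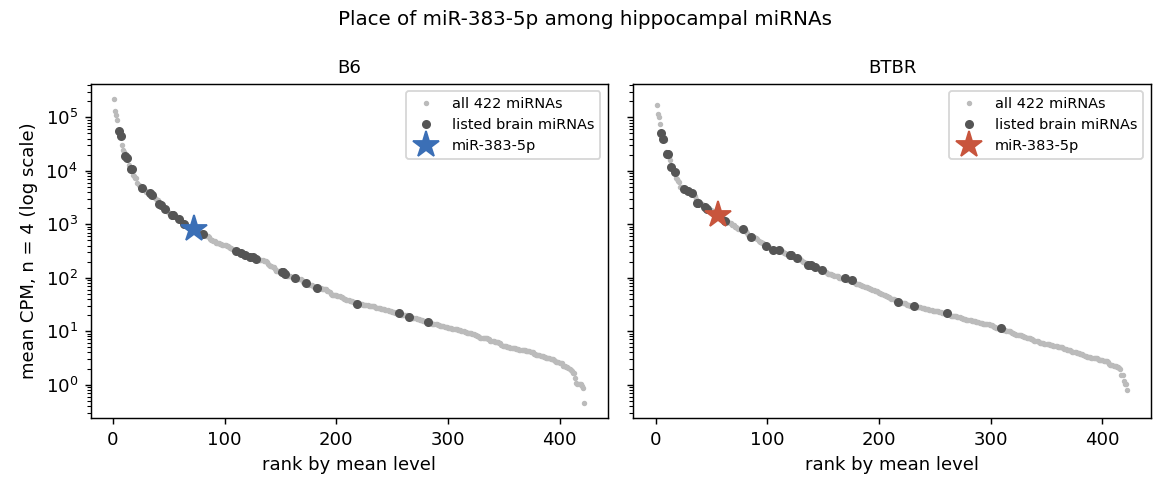
Mean level (CPM, log scale, n = 4 mice) against rank for all 422 miRNAs in B6 (left) and BTBR mice (right), with the listed brain miRNAs in dark grey and miR-383-5p as a star. The star stands at rank 73 in B6 and 56 in BTBR mice, amid the listed brain miRNAs.

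By log2 fold change it ranked 27th of all 422 miRNAs and 17th of the 318 with a mean of at least 10 CPM. Of the 61 miRNAs with a mean level at or above its own 1146 CPM, a bound set by miR-383-5p itself, it had the highest log2 fold change, at 0.88. miRNAs below that bound had higher values, such as miR-148b-3p at 1.31 and miR-486a-5p at 1.19, both named after their values were seen. Among the 61, the next were miR-21a-5p at 0.64 and let-7g-5p at 0.61, and the lowest value of the 61 was −1.30. It stayed the highest of these 61 under each of the 15 other fits made, in which its own value lay between 0.74 and 1.02. The lowest of these was without B6 replicate 4, the lowest B6 mouse, and the highest without B6 replicate 2, the highest B6 mouse.

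Ratios of counts within a library need no normalization, and they were formed against 5 miRNAs of neurons, miR-124-3p, miR-128-3p, miR-9-5p, miR-137-3p and miR-138-5p. Reads of miR-383-5p per 1000 reads of miR-124-3p were 770, 580, 472 and 420 in B6 replicates 1 to 4 and 1012, 1232, 729 and 1103 in BTBR replicates 1 to 4. BTBR replicate 3 thus lay just below B6 replicate 1, and the other BTBR mice lay above all B6 mice. The mean was 560 ± 155 per 1000 in B6 and 1019 ± 214 per 1000 in BTBR mice (SD, n = 4), 1.82 times as high. Against miR-128-3p, the most abundant of these miRNAs after miR-9-5p, the means were 47.9 ± 14.4 and 74.7 ± 16.7 per 1000 (SD, n = 4). Against miR-9-5p, a regulator of neurogenesis, they were 19.98 ± 9.07 and 38.0 ± 7.26 per 1000 (SD, n = 4). With miR-137-3p the strains were closest, at 3440 ± 1237 and 5016 ± 2083 per 1000, and BTBR replicate 2, at 2259, was below 3 of the B6 mice. With miR-138-5p they were farthest apart, at 753 ± 420 and 2132 ± 705 per 1000, with BTBR replicate 1, at 1077, below B6 replicate 2, at 1326. The strain means differed in the same direction for all 5 references, by 1.46 to 2.83 times, and the ranges overlapped for each of them. The references at either end had the highest and lowest log2 fold changes of the 5 themselves, 0.43 for miR-137-3p and −0.62 for miR-138-5p. All 5 lay below miR-383-5p in log2 fold change, so the shared direction was largely given in advance. None of the 5 references passed the adjusted threshold in edgeR's quasi-likelihood test, beside 1.66% of all miRNAs, and 0 of 5 had an unadjusted p under 0.05, beside 10.9%. Over all 421 other miRNAs as the reference, the mean log ratio was higher in BTBR mice for 396. That count largely restates the rank of miR-383-5p by log2 fold change and is no separate support. The ratios of all BTBR mice lay above those of all B6 mice for 135 of the 421 references, and below them for 2. These counts also follow from the choice of miR-383-5p for its strain difference. Other miRNAs were not put in its place for comparison.

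**Figure D3:**
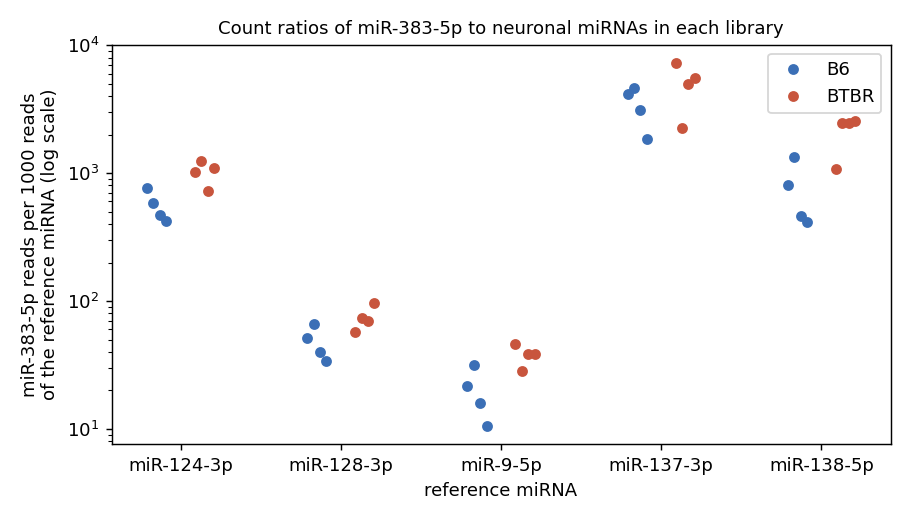
Reads of miR-383-5p per 1000 reads of each of 5 neuronal miRNAs (log scale), 1 point per library, B6 in blue and BTBR in red. The BTBR points lie higher on average for each reference, from 1.46 times for miR-137-3p to 2.83 times for miR-138-5p, and overlap the B6 points in every column.

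Like miR-383, 18 other measured miRNAs were listed as made from introns of genes expressed in brain, and the annotation places a hairpin of each in an intron of a coding gene. The list is partial and takes a single arm of each hairpin. Arms left out had log2 fold changes on both sides of 0, such as miR-151-5p below and miR-139-3p above. Of the 18, 12 had log2 fold changes above 0 and 6 below, with a median of 0.15 beside 0.02 over all miRNAs and a range from −0.41 to 0.57. With library size only the median was 0.27 beside 0.15 over all miRNAs, and without B6 replicate 1 it was −0.00023 beside −0.04. None passed the adjusted threshold in edgeR's quasi-likelihood test, nor in the DESeq2 and limma-voom fits, and 1 (5.56%) had an unadjusted p under 0.05, beside 10.9% of all miRNAs. That was miR-708-5p, from an intron of the teneurin gene Tenm4, with a mean of 65.6 ± 12.8 CPM in the B6 group and 97.0 ± 9.35 CPM in the BTBR group (SD, n = 4). It differed by 0.57 on the log2 scale (standard error 0.22, Benjamini-Hochberg adjusted p = 0.345 from edgeR's test). The next in size were miR-326-3p, from the beta-arrestin gene Arrb1, at 0.45 (standard error 0.24, adjusted p = 0.531 from edgeR's test), and miR-149-5p, from the glypican gene Gpc1, at 0.43 (standard error 0.27, adjusted p = 0.610 from edgeR's test). The strains did not overlap for 2 of the 18 (11.1%, beside 6.64% of all miRNAs), which were miR-708-5p and, lower in BTBR mice, miR-186-5p, from an intron of the splicing factor gene Zranb2. miR-186-5p, named after its values were seen, averaged 1546 ± 160 CPM over the B6 mice and 1164 ± 210 CPM over the BTBR mice (SD, n = 4). miR-218-5p, whose hairpins lie in introns of the axon guidance genes Slit2 and Slit3, also had a value slightly below 0, −0.16 (standard error 0.22). The value of miR-383-5p lay above those of all 18.

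**Figure D4:**
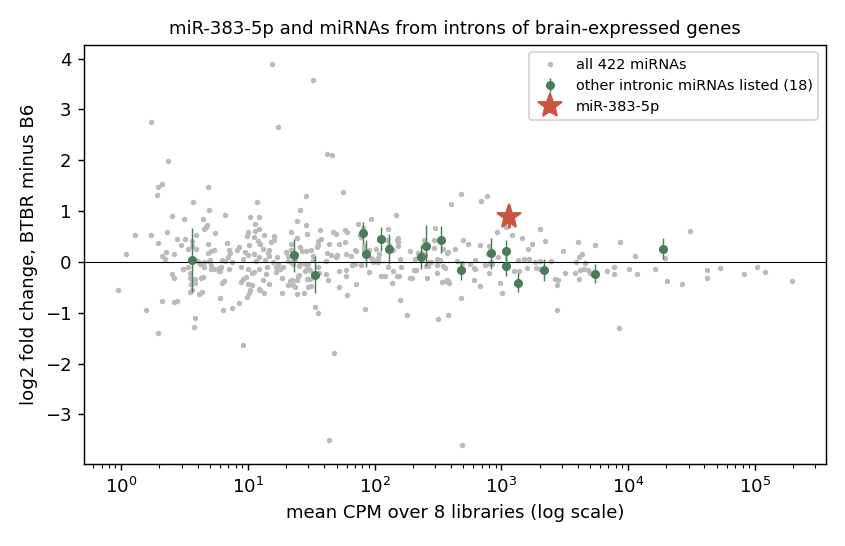
Log2 fold change between BTBR and B6 mice against mean level over the 8 libraries (CPM, log scale) for all 422 miRNAs, with standard errors for miR-383-5p (star) and the 18 other listed intronic miRNAs (green). The 18 lie between −0.41 and 0.57, and miR-383-5p lies at 0.88.

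The miRNAs whose profile over the 8 libraries was nearest to that of miR-383-5p were miR-1224-5p, miR-411-3p, miR-133a-3p, miR-667-5p and miR-369-3p. Likeness was measured as the root mean square difference of log2(CPM + 0.5) values after each miRNA was centred on its own mean, over 317 candidates with a mean of at least 10 CPM. The centring ran over both strains, so a shared strain difference counts toward likeness. The distance was 0.24 for miR-1224-5p and 0.31 for miR-369-3p, the fifth, with a median of 0.63 over all candidates. The sixth candidate was at 0.31 as well, so the list has no sharp end. The list also depended on single mice, and between 1 (without BTBR replicate 1) and 5 of the miRNAs stayed in it when a mouse was left out. The mature sequences that RefSeq gives for 4 of them, on GRCm38.p6, are shown to let their seeds be compared, and the capitals mark the seed.
miR-1224-5p: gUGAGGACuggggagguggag
miR-411-3p: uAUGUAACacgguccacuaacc
miR-667-5p: cGGUGCUGguggagcagugagcacg
miR-369-3p: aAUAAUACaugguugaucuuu
miR-383-5p and miR-133a-3p are given by name only. These 4 sequences have 4 different seeds, so the likeness in level over libraries joins miRNAs that do not share a seed among themselves. miR-1224-5p lies on chromosome 16 from 20604452 to 20604472 on the plus strand. miR-411-3p (109710225 to 109710246), miR-667-5p (109720020 to 109720044) and miR-369-3p (109743466 to 109743486) lie on the plus strand of chromosome 12, in the imprinted Dlk1-Dio3 region. Of the 317 candidates, 52 (16.4%) come from that region.

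miR-1224-5p, a miRNA made from a short intron without Drosha, ranged from 60.6 to 70.8 CPM over B6 mice and from 92.0 to 144 CPM over BTBR mice. Its strains did not overlap, at a log2 fold change of 0.85 (standard error 0.22). Within B6 mice miR-1224-5p was lowest in replicate 2 (−0.54 on the centred log2 scale), where miR-383-5p was highest (−0.12). miR-411-3p ranged from 26.5 to 33.1 CPM over B6 mice and from 37.7 to 51.6 CPM over BTBR mice, also without overlap. miR-133a-3p, best known from muscle, ranged from 11.7 to 31.5 CPM over B6 mice and from 27.1 to 35.1 CPM over BTBR mice, where B6 replicate 2 was as high as the BTBR mice. For miR-667-5p the B6 range was 5.84 to 12.3 CPM and the BTBR range 11.2 to 17.9 CPM, and for miR-369-3p they were 408 to 623 CPM and 432 to 743 CPM. In both the strains overlapped. These miRNAs were picked for nearness to miR-383-5p over the same libraries, so their strain differences are a description and were not tested. The ratio of miR-383-5p to miR-1224-5p counts lay between 9.33 and 16.3 over the 8 libraries.

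**Figure D5:**
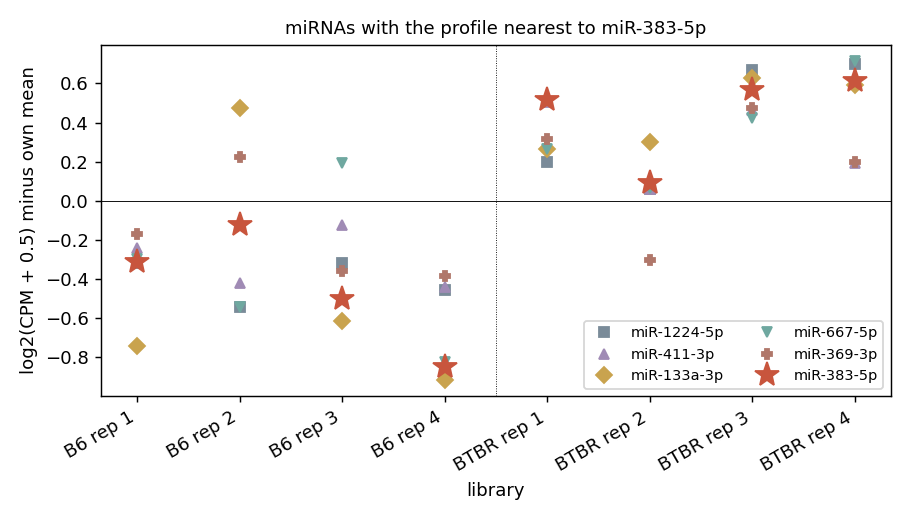
Log2(CPM + 0.5) minus each miRNA's own mean (vertical axis) in the 8 libraries, for miR-383-5p (star) and the 5 miRNAs nearest to it. miR-1224-5p is nearest to miR-383-5p, at a root mean square distance of 0.24 over the 8 libraries, and miR-667-5p in B6 replicate 3 lies farthest from it.

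Markers of other cells were followed beside miR-383-5p as summed TMM-normalized levels, and each listed marker had reads in every library. The 5 neuronal miRNAs summed to between 48757 and 77811 CPM in B6 and between 57531 and 67379 CPM in BTBR mice, so that the B6 range enclosed the BTBR range. Choroid plexus miRNAs were lower in BTBR mice for 8 of 9 members, beside 207 of all 422 miRNAs. They summed to between 5220 and 39966 CPM in B6 and between 5298 and 9607 CPM in BTBR mice, so the ranges overlapped. An unadjusted p under 0.05 in edgeR's test was found for 4 of the 9 choroid plexus, 3 of the 4 red blood cell and 1 of the 3 muscle miRNAs, beside 10.9% of all miRNAs. The highest choroid plexus sum, and the highest value of 8 of the 9 members, belonged to B6 replicate 1, without which the log2 fold change of miR-383-5p was 0.87. Red blood cell miRNAs were higher for 4 of 4 members, beside 215 of all 422 miRNAs. Of these 4, 1 passed the adjusted threshold in edgeR's test, beside 1.66% of all miRNAs. They summed to 303 to 853 CPM in B6 and 531 to 1371 CPM in BTBR mice. Their highest library was BTBR replicate 2, the BTBR mouse with the least miR-383-5p. Muscle miRNAs were higher for 3 of 3 members, at 594 to 983 CPM and 786 to 1204 CPM. Oligodendrocyte miRNAs (2238 to 4256 and 2289 to 2922 CPM), endothelial and mural miRNAs (8863 to 13365 and 6831 to 10686 CPM) and immune miRNAs (1045 to 1149 and 892 to 1746 CPM, higher for 5 of 5 members) overlapped between B6 and BTBR mice. The part of these cells in the level of miR-383-5p was not tested.

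Predicted targets could be looked up only by name, because transcript levels were not analysed here. miR-383-5p has no entry among the seed-based target predictions drawn up in the study for its miRNAs, nor among the pairs with a differentially expressed transcript that were taken from those predictions. In the companion list of experimentally supported pairs it appears with Rufy2, which encodes an endosomal adaptor protein, alongside miR-344d-3p. In a separate prediction by binding affinity, of which only a part was read here, it appears with transcripts that include Slc4a5, a bicarbonate cotransporter gene, Eps15, an endocytosis gene, and the imprinted noncoding RNA Meg3. In what was read, it has no entry in the study's list of matches between its miRNAs and differentially expressed transcripts. It also has none among the pairs that the study proposes for target-directed miRNA degradation. No level of the named genes is given, and nothing about them follows from the miRNA counts.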

How the data were processed

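Small RNA libraries (Illumina TruSeq, NextSeq500) from single mice were mapped by the authors to GRCm38 with sRNAbench, which runs Bowtie, and reads within miRBase v21 coordinates were assigned to miRNAs. The submitters' notes also name FastQC 0.11.2. The deposited values are unnormalized counts for 422 miRNAs, each with at least 1 read in every library. BTBR reads were mapped to a B6 reference, and the effect of strain variants on the counts was not tested. The 8 columns were matched to mice by library name, and each pair of replicates differed by more than sampling noise.

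Counts were normalized by TMM and fitted with edgeR 4.0.16 (quasi-likelihood, no covariates, Benjamini-Hochberg adjustment over 422 miRNAs, threshold 0.1 as in the study) in R 4.3.3, with limma 3.58.1 and DESeq2 1.42.0 as alternatives. Other alternatives were other scalings, a minimum mean of 10 CPM, a pseudocount of 1 CPM in place of 0.5, the replicate number as a block, and each mouse left out. The fit was tested on simulated counts. Standard errors come from the fold change and its F statistic. Ranks, ratios and plots were made in Python 3.11.15 with matplotlib 3.10.9. Positions are from GENCODE M21 on GRCm38 and sequences from RefSeq.

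miR-383-5p and the lists were chosen with earlier results of these data known. The miRNAs named are miR-383-5p, the 5 nearest in profile, its neighbours in level, any listed intronic miRNA past the threshold (there was none) and the 3 of that list with the largest change. The other miRNAs were named after their values were seen.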

Additional observations from a re-analysis of the deposited data

Results flagged for a closer look

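Of 36 groups of 4 mice examined for a mouse far from the rest, 3 had a gap to the nearest mouse, as a share of the group's range, above Dixon's 95% critical value, and chance gives about 1 in 20. In BTBR mice the reads of miR-383-5p per 1000 reads of miR-138-5p were 1077 in replicate 1 and 2468, 2444 and 2539 in replicates 2 to 4, a gap of 0.935 of the range. miR-133a-3p, among the miRNAs nearest in profile, had 31.5 CPM in B6 replicate 2 and 11.7 to 14.5 CPM in the other B6 mice, a gap of 0.856 of the range. The immune miRNAs summed to 1149 CPM in B6 replicate 2 and to 1045 to 1061 CPM in the other B6 mice, a gap of 0.845 of the range. The levels of miR-383-5p itself did not pass that value in either strain, though BTBR replicate 2, at 1149 CPM, lay apart from the other BTBR mice, at 1544 to 1652 CPM.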

How the results depend on the processing

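The log2 fold change of miR-383-5p was above 0 in all 15 alternative fits, from 0.74 to 1.02, and moved by less than the SD between mice. With library size only, the median of all miRNAs shifted by 0.13, and relative to that median miR-383-5p stood at 0.86, beside 0.87 with TMM.

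The count of miRNAs past the threshold, 7, was 21 with the DESeq2 Wald test, 4 with library size only and 3 with the replicate block, in which mice of the same number were paired. Same-numbered mice did not deviate together (correlations from −0.15 to 0.05), and only number 1 matched its own number best, so the numbers do not pair the mice. With a mouse left out, the count ranged from 3 to 13. It was 13 without B6 replicate 2, 4 without BTBR replicate 1 and 3 when BTBR replicate 3 or BTBR replicate 4 was omitted. The median log2 fold change of the 18 intronic miRNAs was 0.27 with library size only and lay between −0.00023 (without B6 replicate 1) and 0.20 with a mouse left out. It was 0.06 without B6 replicate 3. The rank among listed brain miRNAs in BTBR mice lay between 14 and 15. Of the 5 miRNAs nearest in profile, 1 to 5 stayed with a mouse left out: 1 without BTBR replicate 1, 2 without B6 replicate 4, and 3 without B6 replicate 3, BTBR replicate 2 or BTBR replicate 3. The causes were not tested.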
